A study of Homo sapiens with 10 samples.

Results

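The comparison described here sets the edited line against the control line in the ventral arm of a neural differentiation at day 16. All genes with at least 1 FPKM (fragments scaled to transcript length and to the library) in either of the 2 ventral libraries were members, 14569 of the 42335 gene symbols in the deposited table. The cells were H9, a human embryonic stem cell line. The control, Ctrl, was wild type, and the edited line, V1PAKI, carried the genotype named SOX1-OT V1 PAKI, for which the labels do not spell out PAKI. Both lines went through embryoid bodies in suspension, a neural medium from day 4 and attachment at day 7. For ventral telencephalon, per the labels' protocols, neuroepithelial cells were given Sonic hedgehog protein at 200 ng/ml and SAG, a small molecule that activates the same pathway, at 1.5 μM from day 10. The letters V in Ctrl_d16V and V1PAKI_d16V and D in the other arm (d16D) are not spelled out by the labels either. V was read as ventral from the protocol and from the genes below, and D is kept as a letter. Whether V1PAKI is 1 clone is not given in the sources used here.

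Sonic hedgehog is a secreted protein that patterns the ventral neural tube. It relieves the receptor SMO from repression by PTCH1, after which GLI factors switch on targets that include GLI1, HHIP and PTCH1 itself, while ventral transcription factors such as NKX2-1 and NKX2-2 appear in progenitors of the basal forebrain and hypothalamus. SOX1 is a transcription factor of early neural progenitors. SOX1-OT is a noncoding gene whose entry in GENCODE 29, the annotation used here, lies beside SOX1.

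Each line had 1 library in this arm, so the comparison has no replicate check and no test. Differences are log2((V1PAKI + 1)/(Ctrl + 1)) in FPKM, written as V1PAKI minus Ctrl. Low values are damped by the added 1, so the change of weakly expressed genes is understated, and "higher" or "lower" in a count means a difference of at least 1, a doubling or halving of FPKM + 1. At d16V 60 of the 14569 genes were higher in V1PAKI (0.412%) and 363 were lower (2.49%). The median difference was -0.07, 63.4% of the genes lay below 0, and from the 5th to the 95th percentile it ran from -0.72 to 0.34. The list counts below are to be read beside these shares. At d16D 836 of 15194 genes were higher (5.5%) and 526 lower (3.46%). FPKM summed to 213818 in the Ctrl library and 200509 in the V1PAKI library, and the sequencing depth is unknown. In bulk samples like these, fewer cells of a type and less RNA per cell cannot be told apart.

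**Figure D1:**
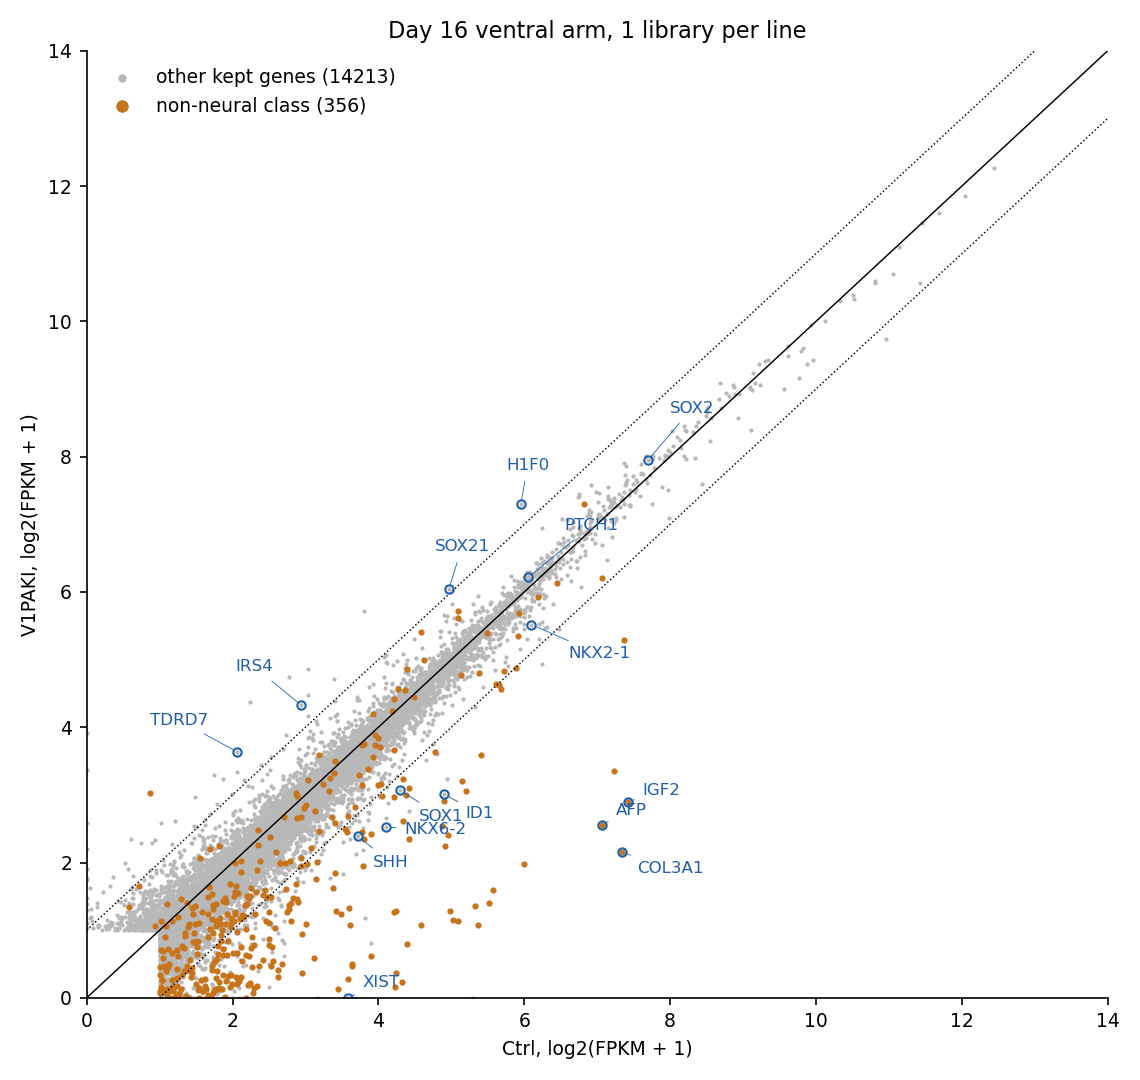
FPKM of the 14569 kept genes in the Ctrl (x axis) and V1PAKI (y axis) libraries of the day 16 ventral arm, both as log2(FPKM + 1), 1 point per gene. The solid line marks equal values and the dotted lines a difference of 1. The non-neural class (356 genes, orange) lies mostly under the diagonal, where COL3A1 and AFP stand at differences of -5.19 and -4.50, while SOX2 and PTCH1 lie close to the line.

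The non-neural class held 171 of the 363 lower genes, and its definition used none of the d16V values. The class holds genes of fixed non-neural marker lists that are in no neural list, and genes whose difference between the lines changed sign, by at least 1 each way, between d10 and d16D. Of its 356 kept genes 171 were lower and 1 was higher, with a median of -0.96. Genes that were lower in V1PAKI at d10 and higher at d16D made up 278 of these, with 152 lower and 1 higher at d16V. The 31 that swung the other way, among them SIX3 and FEZF1, had none past 1 in either direction and a median of -0.04. Of the 100 kept class genes that are in a non-neural list 63 were lower. By the swing alone the class also takes in POU5F1, HOXB2, HOXB4 and SST, so its name is not true of every member. Summed over 193 non-neural list genes, FPKM were 1655 in Ctrl_d16V and 360.1 in V1PAKI_d16V, which was 0.774% and 0.180% of all FPKM. The same sum was 4614 in Ctrl and 1586 in V1PAKI at d10, and 1556 in Ctrl and 7889 in V1PAKI at d16D. The V1PAKI ventral library thus had the lowest sum of the 10 libraries, and the V1PAKI_d16D library the highest.

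Endoderm, yolk sac and liver genes were lower in 17 of 20 kept members (median -3.24). AFP, the fetal serum protein alpha-fetoprotein, stood at 132 FPKM (Ctrl) and 4.88 FPKM (V1PAKI), and APOA1, a lipid carrier, at 63.0 and 2.93. In mesenchyme and fibroblast matrix 17 of 24 were lower (median -1.88), led by the fibrillar collagen COL3A1 at 161 and 3.44 FPKM. Epithelium and surface ectoderm (10 of 13, median -1.32), mesoderm and heart (8 of 12, median -1.36) and endothelium and blood (4 of 6, median -1.25) had no member past 1 in the other direction. Nor had trophoblast and amnion (5 of 10 lower, median -0.93), neural crest (3 of 15, median -0.77), smooth and skeletal muscle (2 of 9, median -0.52) or choroid plexus and cilia (2 of 5, median -0.43). A member that reached 1 FPKM in Ctrl alone can only lie below 0, so these counts and medians lean that way. The filter kept 6 of 28 endothelium and blood genes and 10 of 22 trophoblast and amnion genes. In other settings these 2 medians came as near to 0 as -0.25 and -0.26. Among a longer set of defining markers, the embryonic globin HBE1 was listed at 0 in V1PAKI (difference -1.66). SOX17 of endoderm, MYL7 of heart muscle and PTPRC of blood cells were listed at 0 there too. Their Ctrl levels are not given here, so these zeros are not read as a loss. FOXA2, which marks both endoderm and floor plate, stood apart from the endoderm genes at 8.12 FPKM in Ctrl and 11.0 in V1PAKI. A pair of imprinted genes of 1 cluster went with this group. IGF2, a growth factor, stood at 170.3 and 6.44 FPKM, and H19, its noncoding neighbour, at 149.8 and 9.23. Both had the reverse order at d16D, where IGF2 stood at 76.9 in Ctrl and 541 in V1PAKI. The other 16 kept imprinted genes held 1 more past 1, NLRP2.

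Outside the non-neural class 14213 genes remained, with a median of -0.06, of which 59 were higher and 192 lower. Of the 192, 28 were also lower by at least 1 at d16D and 42 were higher there by at least 1. Over all genes kept at d16V these shares were 3.14% and 3.86%. In all, 114 of the 192 were above 0 at d16D and 69 below. The class rule had already taken out genes at least 1 lower at d10 and at least 1 higher at d16D. The split of the 192 is therefore shaped in part by the d16D values. The plasma and matrix proteins IGFBP7 (13 FPKM in Ctrl, 1.26 in V1PAKI at d16V, 3.23 and 16.2 at d16D) and ORM1 (5.52 and 0.536 at d16V, 7.16 and 29.8 at d16D) had the order of the non-neural class in both arms without meeting its rule at d10. The class therefore does not hold every gene with that order.

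**Figure D2:**
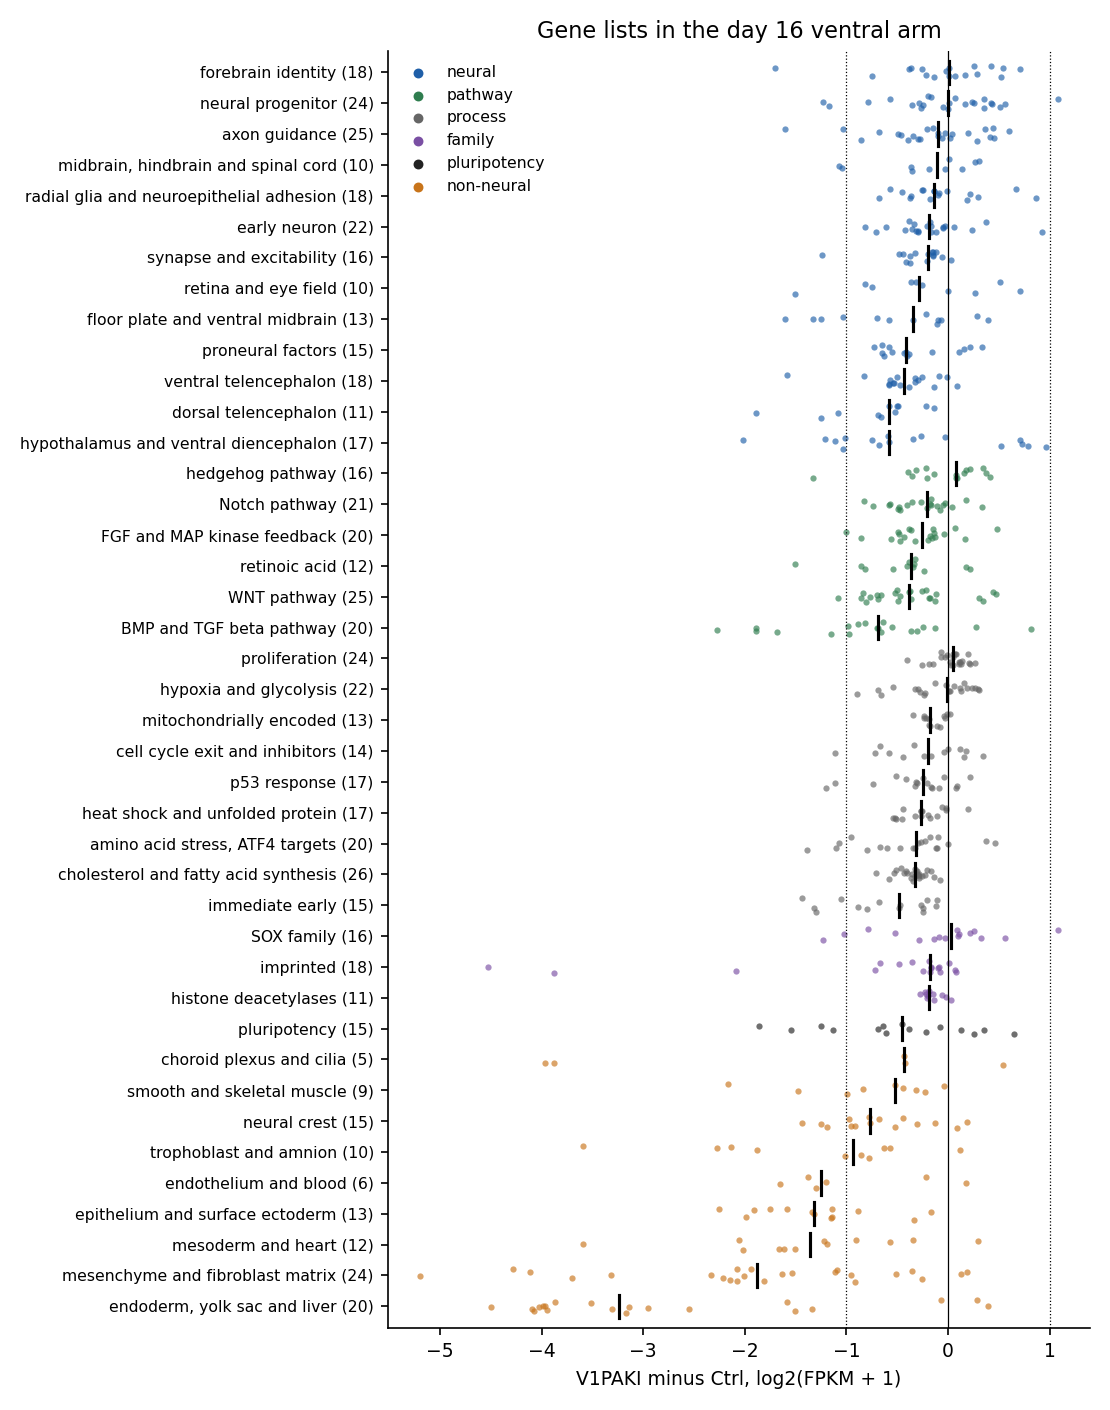
V1PAKI minus Ctrl at d16V, as log2(FPKM + 1), for every kept member of the lists with at least 5 kept genes (number in brackets), 1 point per gene and a black bar at the list's median. Neural lists (blue) sit with medians between -0.58 and 0.01, and the endoderm list stands farthest to the left, at -3.24.

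Of 24 neural progenitor genes 21 lay within 1, and 12 were above 0 and 12 below, with a median of 0.00 beside -0.07 over all genes. The 3 past 1, beside 2.9% of all genes, were SOX1, ZIC1 and SOX21, described below. NES, an intermediate filament of neural stem cells, stood at 202 FPKM in Ctrl and 203 in V1PAKI, and CDH2, the neural cadherin, at 65.2 and 65.1. SOX2, which maintains neural progenitors, stood at 206 and 246. Of 24 proliferation genes none was past 1, with a median of 0.05. In that list CCNB2, a cyclin of mitosis, was farthest above 0, at 32.5 and 39.4 FPKM. Radial glia and neuroepithelial adhesion genes had none of 18 past 1 (median -0.14), with TNC, a matrix protein of radial glia, at 16.1 and 30.2 FPKM. Axon guidance genes had 2 of 25 lower (median -0.10), genes of cell cycle exit 1 of 14 (median -0.20), retina and eye field genes 1 of 10 (median -0.29), and midbrain, hindbrain and spinal cord genes 2 of 10 (median -0.11). The last 2, HOXB2 and HOXB4, belong to the non-neural class by their swing.

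SOX1, at chromosome 13, 112067647 to 112070488 on the plus strand of GRCh38, was 1 of the 2 neural progenitor genes that were lower. It stood at 18.7 FPKM (Ctrl) and 7.38 FPKM (V1PAKI) at d16V, a ratio of 2.53 (difference -1.23), and at 32.6 and 10.9 at d16D. In both lines the ventral library had less SOX1 than the d16D library. SOX1-OT, at chromosome 13, 112107119 to 112108015, stood at 3.51 FPKM in Ctrl and 1.22 in V1PAKI (difference -1.03). LINC00404, the noncoding gene between them on the other strand, stood at 10.1 and 4.89 FPKM (difference -0.91), so SOX1 and the 2 other kept genes within 250 kb of it were all below 0. The treatment of strand is not given in the sources used here, and SOX1-OT and LINC00404 are neighbours on opposite strands. HDAC10, the histone deacetylase in the study's title, stood at 4.12 and 3.91 FPKM (difference -0.06), near the middle of all genes at percentile 51.5. None of the 11 kept histone deacetylase genes was past 1, and their median was -0.18. Relative to the median of the other neural progenitor genes, which was 0.01, the difference of SOX1 was -1.24 and that of SOX1-OT -1.03.

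The close relatives of SOX1 stood the other way. SOX3, the second of the 3 SOXB1 genes, had 90.8 FPKM in Ctrl and 135 in V1PAKI (difference 0.56), and SOX2 had a difference of 0.25. SOX21, a SOXB2 factor that counteracts SOXB1 proteins on their targets, was at 30.3 and 65.2 FPKM (difference 1.08), the highest of the neural progenitor list and 99.7 in percentile of all genes. At d16D SOX21 stood at 33.2 in Ctrl and 26.5 in V1PAKI, so its difference was not shared by the arms. SOX9, which acts in gliogenic progenitors, was at 24.4 and 13.8 FPKM (difference -0.78), and ZIC1, a zinc finger factor of dorsal progenitors, at 6.43 and 2.31 (difference -1.17). Over the 16 kept genes of the SOX family the median was 0.03, with SOX21 higher and SOX1 and SOX1-OT lower.

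**Figure D3:**
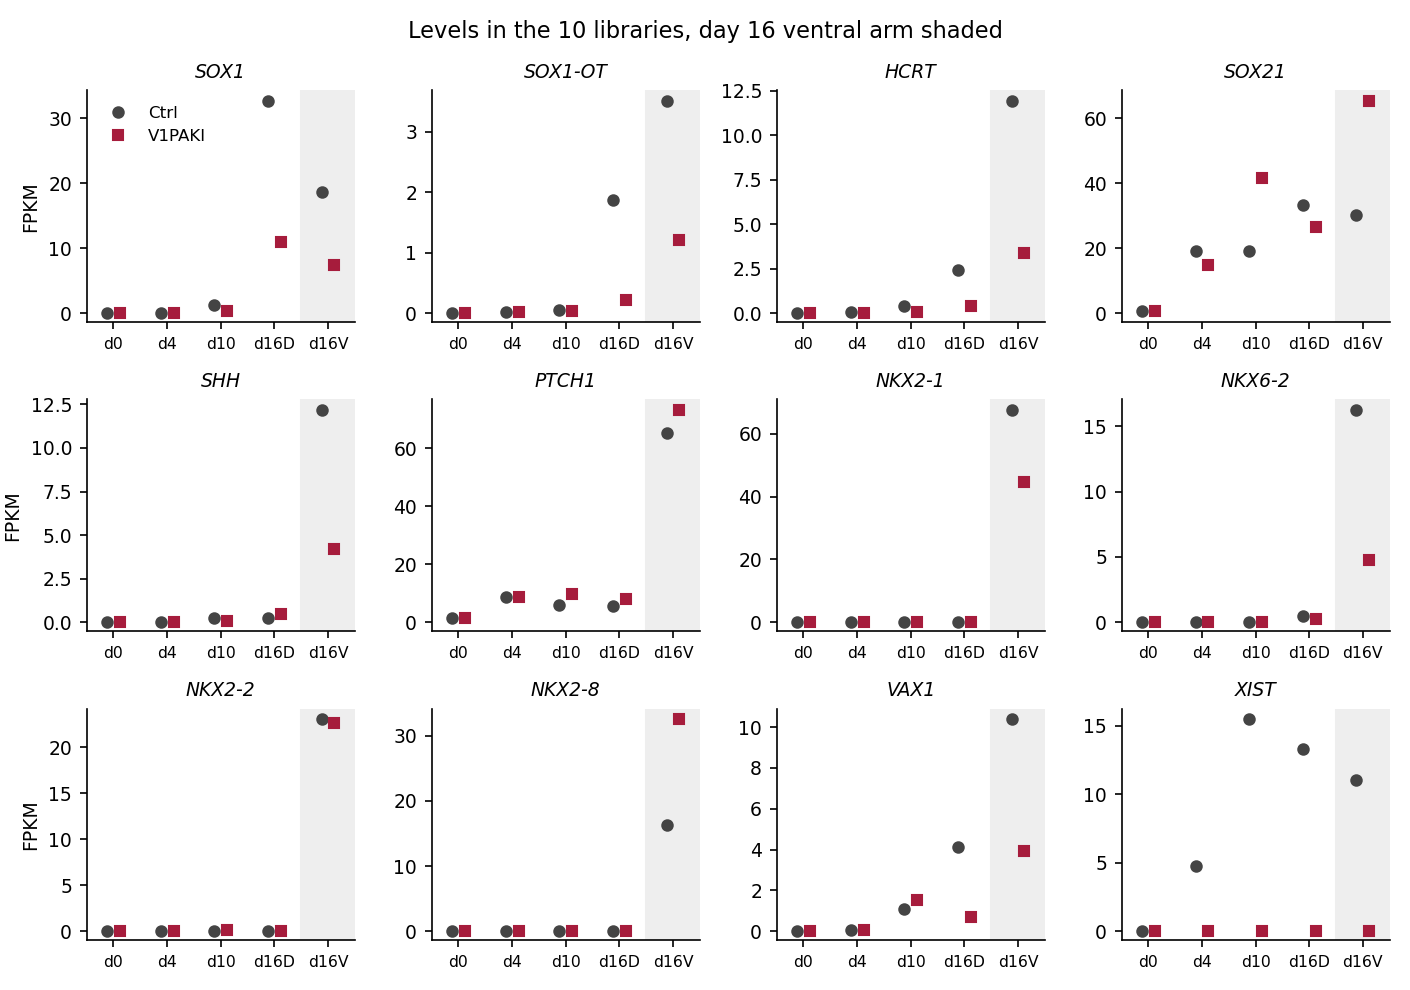
FPKM of 12 genes in all 10 libraries by stage (x axis), Ctrl as grey circles and V1PAKI as red squares, with the day 16 ventral arm shaded. SOX1 and HCRT are lower in V1PAKI in both day 16 arms, NKX2-1, NKX2-2, NKX2-8 and NKX6-2 are near 0 outside the ventral arm, and PTCH1 is high in the ventral libraries of both lines.

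The hedgehog pathway had 1 lower gene among 16 kept, the ligand itself, and a median of 0.08. SHH stood at 12.2 FPKM in Ctrl and 4.23 in V1PAKI (difference -1.33), and at 0.467 FPKM or less in the other 8 libraries. These SHH transcripts are the cells' own, since the treatment added protein. The response genes stood close together in the lines. PTCH1, the receptor and feedback inhibitor, was at 65.3 and 73.2 FPKM at d16V against 5.56 and 8.04 at d16D. GLI1, a target that marks pathway activity, was at 11.6 and 13.2 FPKM at d16V and 0.588 and 2.86 at d16D. HHIP, an inhibitor that binds the ligand, was at 5.01 and 4.17, against 0.146 and 0.479 at d16D. From d16D to d16V PTCH1 differed by 3.34 on the log2 scale in Ctrl and by 3.04 in V1PAKI. The signal transducer SMO (35.8 FPKM in Ctrl and 38.2 in V1PAKI) and the inhibitor SUFU (9.24 and 10.9) were also near level. Among coreceptors BOC stood at 5.85 and 8.15 FPKM and GAS1 at 8 and 10.4, both below their own d16D values, and CDON at 2.46 and 1.99. BOC and GAS1 lay above the 95th percentile of all differences (0.42 and 0.34), and CDON lay below 0. GLI2, the main activator, was at 8.56 and 11.4 FPKM, and GLI3, which acts mainly as a repressor, at 6.78 and 6.08. Of the remaining kept members, DISP1, KIF7, SCUBE1 and SCUBE3 had differences between -0.35 and 0.08, and DHH, IHH, HHAT and SCUBE2 were under 1 FPKM in both libraries.

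The windows upstream of a response gene, the ligand gene and a ventral factor are shown because the first differed little between the lines and the second was lower. Each is the 250 bases before the first gene start that RefSeq lists (GRCh38.p14), 5′ to 3′ on the gene's strand, with matches to the GLI motif GACCACCCA or its core CCACCCA, on either strand, in capitals.
PTCH1: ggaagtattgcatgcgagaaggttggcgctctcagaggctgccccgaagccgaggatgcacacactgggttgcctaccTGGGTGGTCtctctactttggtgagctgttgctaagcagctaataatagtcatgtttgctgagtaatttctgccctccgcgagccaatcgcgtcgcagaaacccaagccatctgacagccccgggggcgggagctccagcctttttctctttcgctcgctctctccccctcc
SHH: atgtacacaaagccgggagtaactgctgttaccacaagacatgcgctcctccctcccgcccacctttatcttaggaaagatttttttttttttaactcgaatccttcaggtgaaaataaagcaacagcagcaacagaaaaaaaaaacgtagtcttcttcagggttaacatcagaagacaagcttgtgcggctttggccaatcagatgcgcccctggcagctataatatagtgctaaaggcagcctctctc
NKX2-8: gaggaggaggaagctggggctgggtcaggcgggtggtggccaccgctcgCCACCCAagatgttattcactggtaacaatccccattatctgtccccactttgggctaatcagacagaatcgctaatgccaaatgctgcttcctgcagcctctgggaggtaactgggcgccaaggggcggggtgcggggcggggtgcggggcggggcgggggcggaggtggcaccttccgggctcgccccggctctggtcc
The PTCH1 window (chr9:95509267-95509516, minus strand) holds the full motif on its reverse strand. The SHH window (chr7:155812464-155812713, minus strand) holds neither, and the NKX2-8 window (chr14:36582615-36582864, minus strand) holds the core. Over 27305 promoter windows, each with 50 further bases, 0.249% hold the full motif and 9.01% the core, which lies within the full motif. Of the kept hedgehog pathway genes 11 matched a window, and 1, PTCH1, held the full motif. Of 14 matched hypothalamus and ventral diencephalon genes 1, NKX2-8, held the core (7.14%), and none held the full motif. Of 10 matched ventral telencephalon genes 1 held the core and none the full motif. The windows shown are thus not typical of the ventral lists. A match is a run of letters and not a measured binding site.

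Among ventral telencephalon genes 1 of 18 kept members was lower. Of the 18, 17 were below 0, and the median was -0.43, beside -0.07 over all genes. NKX6-2, a homeodomain factor of ventral progenitors, was the lower one, at 16.3 FPKM in Ctrl and 4.75 in V1PAKI (difference -1.59). NKX2-1, which specifies the medial ganglionic eminence and the hypothalamus, was at 67.5 and 44.8 (difference -0.58), and at 0.0826 FPKM or less in both d16D libraries. OLIG1 stood at 15.4 and 8.24 FPKM (difference -0.83) and its neighbour OLIG2, a factor of oligodendrocyte and ventral progenitors, at 7.15 and 4.86. The DLX homeobox genes of GABAergic precursors were low in both libraries and below 0 together. DLX1 was at 6.62 and 4.10 FPKM, DLX2 at 5.05 and 3.15, DLX5 at 3.86 and 2.97 and DLX6-AS1 at 5.50 and 3.51. At d16D the same genes were further apart, with DLX1 at 16.2 FPKM in Ctrl and 0.882 in V1PAKI, and DLX6-AS1 at 11.8 and 0.119. GAD1, which makes GABA, was at 2.76 and 1.66, ISL1 at 1.67 and 0.801 and SIX3 at 71.9 and 59.9. ETV1 (5.54 and 5.97), GSX1 (1.61 and 1.6), MEIS2 (2.70 and 2.48), SP9 (2.22 and 1.93) and GAD2 (1.46 and 0.956, difference -0.33) had low values in both libraries. LHX6 and LHX8, markers of medial ganglionic eminence neurons, stayed under 1 FPKM in both libraries, as did GSX2, DLX6, GBX1 and EBF1.

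Hypothalamus and ventral diencephalon genes split. Of 17 kept members 5 were lower, none was higher, and 5 lay above 0 (median -0.58). Of the 5 lower genes 3, SST and TBX3 among them, belong to the non-neural class by their swing in the other libraries. The neuropeptide gene SST stood at 10.9 FPKM in Ctrl and 4.49 in V1PAKI. The 2 outside that class were VAX1, a homeodomain factor of the preoptic area and optic stalk, at 10.4 and 3.92 FPKM (difference -1.21), and NKX2-4, a close relative of NKX2-1, at 3.12 and 1.01 (difference -1.03). The 5 genes above 0 lay there by less than 1 each. NKX2-8 was at 16.2 and 32.5 FPKM (difference 0.96), FOXB1 of the mammillary region at 9.12 and 16.5, DBX1 at 13.6 and 23.2, the retinal and hypothalamic factor RAX at 29.6 and 48.9, and FEZF1 at 33.2 and 48.1. NKX2-2, the factor induced at high hedgehog levels, was level at 23.1 and 22.6 FPKM, and FOXD1 stood at 16 and 13.2. NKX2-1, NKX2-2, NKX2-4 and NKX2-8 were all under 0.1 FPKM in both d16D libraries. SIX6 was at 47.3 and 27.7 (difference -0.75), OTP, of neuroendocrine neurons, at 2.26 and 1.04, BARHL1 at 1.16 and 0.437 and LHX1 at 1.03 and 0.601. SIM1, SIM2, BARHL2, HMX2, HMX3 and POMC were below 1 FPKM in both libraries and BSX was listed at 0. HCRT, the gene of the neuropeptide orexin, is in none of the lists and stood at 11.9 FPKM in Ctrl and 3.38 in V1PAKI (difference -1.56), and at 2.46 and 0.390 at d16D. With the filter at 5 FPKM the hypothalamus median was -0.03, where 3 of its 5 lower members are no longer kept.

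Floor plate genes gave 4 lower of 13 kept and a median of -0.35. SLIT2, a midline repellent of axons, had 12.8 FPKM in Ctrl and 3.55 in V1PAKI (difference -1.60). SHH is a member too, and MSX1 and SLIT3 belong to the non-neural class. FOXA2, the defining floor plate factor, had a difference of 0.39 in the other direction.

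Forebrain identity genes had a median of 0.01, with 10 of 18 above 0 and 1 lower. RAX (difference 0.71) and OTX2 (32.9 and 48.3 FPKM, difference 0.54), genes of the eye field and of the anterior neural plate, were farthest above 0. Of the dorsal telencephalon genes all 11 kept were below 0 (median -0.58). BMP7, a secreted signal, had 23.6 FPKM in Ctrl and 14.3 in V1PAKI. WNT8B, a signal of the cortical hem, was lower at 3.47 and 1.11 FPKM, and BMP4 and MSX1 were lower within the non-neural class.

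In the Notch pathway none of 21 kept genes was past 1, 18 were below 0 and the median was -0.20. The ligand DLL3, at 16.7 FPKM in Ctrl and 8.94 in V1PAKI (difference -0.83), and the effector HES4, at 64.7 and 38.3, were farthest below 0, and the effector HES5 stood at 46.4 and 30.9 (difference -0.57). HES1 (53.5 and 38), HES6 (37.1 and 26.1) and the receptors NOTCH1 (22.1 and 15.6), NOTCH2 (11.9 and 9.12) and NOTCH3 (38.5 and 28.8) had differences from -0.50 to -0.35. DLL1, the main ligand of neural progenitors, was at 24.9 and 22.1, JAG1 at 6.92 and 7.16 and RBPJ, the nuclear mediator, at 13.6 and 12.5. LFNG, a glycosyltransferase that modifies Notch, was at 19.9 and 22.7 and HEY1 at 4.70 and 6.20. The target NRARP stood at 31.1 and 27.5, and the remaining members JAG2, HEY2, HEYL, MFNG, RFNG, MAML2 and NUMB were between -0.58 and -0.03. DLL4 was under 1 FPKM in both libraries.

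Neuronal lists held 1 gene past 1, beside 2.9% of all genes, and 63.4% of all genes lay below 0. Proneural factors had none of 15 past 1, 11 below 0 and a median of -0.41, with NHLH1 at 5.31 FPKM in Ctrl and 2.82 in V1PAKI and INSM1 at 11.0 and 6.69. Of 22 early neuron genes 18 were below 0, none was past 1, and the median was -0.19. TUBB3, the neuronal tubulin, stood at 76.2 and 59.4, STMN2 at 26.1 and 20.7 and DCX, a protein of migrating neurons, at 14.3 and 17.0. L1CAM, an adhesion molecule of axons, was at 6.50 and 3.25 (difference -0.82), and ELAVL4 at 0.550 and 1.94 (difference 0.92). SYT11, a synaptotagmin, was lower in the synapse list, at 13.6 and 5.16 FPKM (difference -1.24), the only 1 of 16. Its d16D values were 21.8 and 3.82. Earlier stages had the same order for SYT11, with differences of -2.00 (d0), -1.93 (d4) and -0.99 (d10). Its lower level was thus not limited to day 16. Outside the lists and chosen after its values were seen, the neuropeptide precursor VGF stood at 9.70 and 2.60 (difference -1.57).

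BMP and TGF beta genes were the signalling list with the lowest median, -0.69, with 5 of 20 lower and 18 below 0. ID1, an inhibitor of basic helix-loop-helix factors that BMP signalling induces, had 28.8 FPKM in Ctrl and 7.06 in V1PAKI (difference -1.89). NOG, a secreted BMP antagonist, was at 10.4 and 2.55 (difference -1.68), and the pseudoreceptor BAMBI at 11.1 and 1.50 and BMP4 at 4.16 and 0.389 belong to the non-neural class. FST, another secreted antagonist, stood the other way, at 31.1 and 55.7 FPKM (difference 0.82), and was chosen after its values were seen. At d16D ID1 stood at 41.5 in Ctrl and 67.2 in V1PAKI, and NOG at 7.24 and 5.18. In the WNT list 1 of 25 was lower, WNT8B, with a median of -0.38, and FZD8, a receptor, stood at 42.3 and 23.2. FGF and MAP kinase feedback had 1 of 20 lower (median -0.26), FGF19, at 12.1 and 5.51. Retinoic acid genes had 1 of 12 (median -0.36), the synthesis enzyme ALDH1A1, at 2.29 and 0.156. The WNT, FGF and retinoic acid lists thus each held 1 lower gene, beside 2.49% of all genes. At d16D, where the non-neural sum was higher in V1PAKI, the BMP and TGF beta median was 0.50. The WNT, retinoic acid and FGF medians there were 0.48, 0.39 and 0.03. Summed WNT FPKM had the other order, at 575 in Ctrl and 599 in V1PAKI at d16V and 666 and 626 at d16D. The part of the non-neural level in these lists was not tested.

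Immediate early genes were below 0 in 15 of 15, with 4 lower and a median of -0.48. CCN1 and CCN2, matricellular genes of the YAP response, stood at 16.1 and 5.32 and at 12.1 and 4.24 FPKM, JUNB at 5.35 and 1.59 and EGR1 at 6.58 and 2.64. Cholesterol and fatty acid synthesis genes were below 0 in 26 of 26, none past 1, with a median of -0.32, and HMGCS1, which makes the precursor of mevalonate, stood at 109 and 66.4. In the p53 list 2 of 17 were lower, the cell cycle inhibitor CDKN1A (13.5 and 5.70 FPKM) and the death gene PMAIP1 (3.94 and 1.14), with a median of -0.25. Amino acid stress genes had 3 of 20 lower (median -0.31), among them CHAC1 at 3.34 and 1.03 and CEBPB at 7.05 and 2.82. None of 17 heat shock genes (median -0.26), 22 hypoxia and glycolysis genes (median -0.01) or 13 mitochondrially encoded genes (median -0.18) was past 1. Pluripotency genes were lower in 4 of 15 (median -0.45), among them POU5F1, which belongs to the non-neural class by its swing. POU5F1, the stem cell factor OCT4, stood at 17.6 and 6.85 FPKM, TDGF1, a NODAL coreceptor, at 4.34 and 0.835, LEFTY2, a NODAL antagonist, at 4.82 and 0.604 and the noncoding ESRG at 13.6 and 5.65. LIN28A, an RNA-binding protein of stem cells, and DPPA4 were not lower and stood at 166 and 212 and at 27.2 and 32.6.

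The V1PAKI minus Ctrl differences of both day 16 arms were then set side by side. Of the 363 genes lower at d16V 28 were lower at d16D, 7.71% of the d16V list and 5.32% of the 526 at d16D, beside 3.14% of all genes kept at d16V. In contrast 206 of the 363, or 56.7%, were at least 1 higher in V1PAKI at d16D, beside 3.86% of all genes kept at d16V. Of the 60 genes higher at d16V 11 were higher at d16D, 18.3% of the d16V list, beside the same 3.86%, and 1.32% of the d16D list. The arms share no library, but both libraries of a line may come from 1 culture up to day 10, which the labels do not say.

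**Figure D4:**
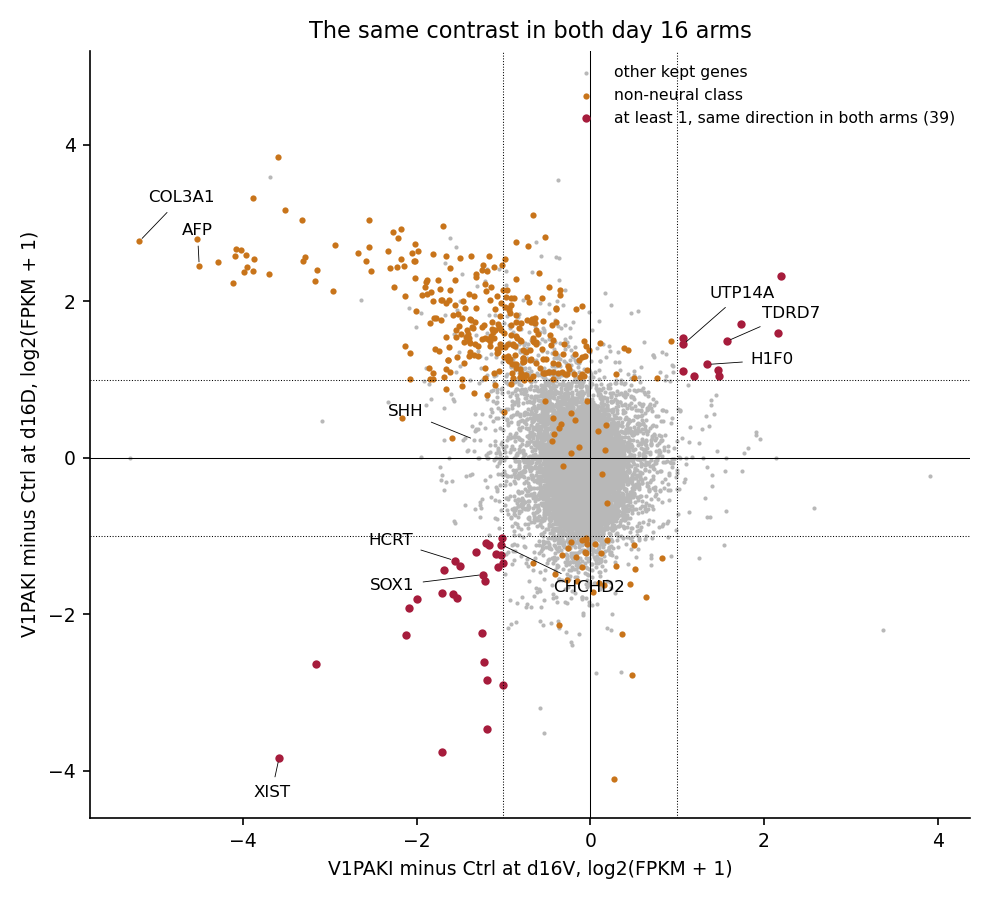
V1PAKI minus Ctrl at d16V (x axis) against the same difference at d16D (y axis), both as log2(FPKM + 1), for genes kept at d16V. The non-neural class (orange) fills the upper left, lower at d16V and higher at d16D. The swing rule puts d16D at 1 or more for 278 of its 356 genes and at -1 or less for 31. For these genes only the d16V side is free. The 39 genes past 1 in the same direction in both arms (red) include SOX1, HCRT and XIST at the lower left and TDRD7 and H1F0 at the upper right.

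Among the 28 genes, 12 were below 0.1 FPKM in both V1PAKI day 16 libraries and 9 in all 5 V1PAKI libraries. XIST, the noncoding RNA that coats an inactive X chromosome, had the largest shared difference, at 11.0 FPKM (Ctrl) and 0.00217 FPKM (V1PAKI) at d16V and 13.3 and 0.00158 at d16D. In Ctrl it stood at 0.00575 at d0, 4.76 at d4 and 15.5 at d10, and no V1PAKI library exceeded 0.0215. ZNF558, a KRAB zinc finger gene, was at 3.36 FPKM in Ctrl and listed at 0 in V1PAKI at d16V, and at 3.81 and listed at 0 at d16D. NLRP2 (3.26 and listed at 0), the cathepsin gene CTSF (3 and listed at 0) and CAT, which encodes catalase (1.31 and listed at 0), had the same order at d16D. HCRT, SYT11, SOX1 and VAX1, given above, were lower in both arms and present in V1PAKI. ISLR2, an axon growth gene, stood at 5.23 and 1.72 FPKM at d16V and 13.6 and 1.03 at d16D. CHCHD2, a mitochondrial protein gene, had the highest level of the 28, at 87.8 and 42.6 FPKM at d16V and 115 and 52.8 at d16D.

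The genes higher in both arms were led in level by H1F0, the linker histone of differentiated cells. H1F0 stood at 60.9 FPKM (Ctrl) and 157 FPKM (V1PAKI) at d16V and 49.5 and 114 at d16D. Its difference was already 1.22 in the d0 libraries, and it was 0.54 at d4 and 0.40 at d10. TDRD7, a Tudor domain gene of RNA granules, was at 3.18 and 11.4 FPKM at d16V and 1.39 and 5.70 at d16D. UTP14A, a nucleolar protein gene on the X chromosome, stood at 3.44 and 8.33 and at 3.70 and 11.8. TOMM6, a subunit of the mitochondrial import channel, was at 0.822 and 7.14 and at 0.441 and 3.36, but at 4.89 in Ctrl and 0.351 in V1PAKI at d10. The other 7 have clone-based names.

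X-linked genes made up 11 of the 60 higher genes. On the X 11 of 526 kept genes with 1 position were higher, 2.09%, beside 0.321% of 13713 autosomal genes, and 5 were lower, 0.951% beside 2.52%. The 11 include IRS4 with adjoining AL035425 genes, whose reads may be shared. They also include RPL36A-HNRNPH2, which joins 2 neighbours under 1 symbol and, summed with both parts, differed by 0.34. Of protein-coding genes 5 on the X were at least 1 higher, 1.13%, beside 0.249% on autosomes. Over protein-coding genes 9.03% of 443 on the X and 1.17% of 11635 on autosomes were at least 0.5 higher. The medians were close, at -0.02 on the X and -0.08 on autosomes. The same shares were 36.3% and 18.3% at d10, 14.2% and 10.7% at d16D, 7.22% and 1.47% at d4 and 16.9% and 14.7% at d0. The cutoff of 0.5 was chosen after the data were seen.

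**Figure D5:**
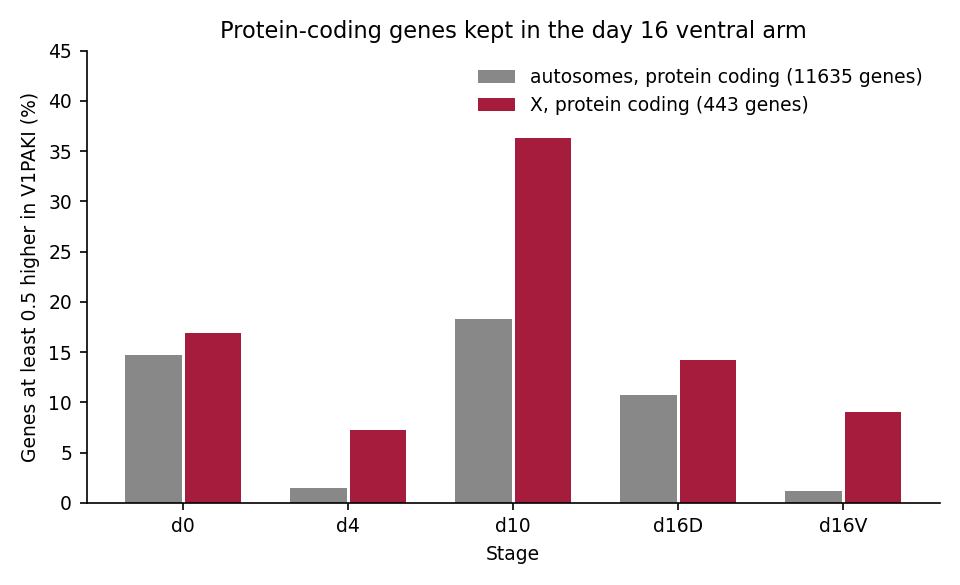
Share of protein-coding genes at least 0.5 higher in V1PAKI than in Ctrl, as log2(FPKM + 1), by stage, for the genes kept at d16V: 11635 autosomal (grey) and 443 X-linked (red). The X-linked share is the higher of the 2 at each stage, 9.03% against 1.17% at d16V.

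Neighbouring X-linked genes were higher together at 2 places, named after their values were seen. IRS4, an adaptor of insulin and growth factor signalling at X, 108732482 to 108736409 on the minus strand, stood at 6.68 FPKM in Ctrl and 19.1 in V1PAKI (difference 1.39). The adjoining AL035425.2, AL035425.3 and AL035425.4 on its strand had differences of 1.48, 1.15 and 1.29, and AL035425.2 overlaps IRS4, so their reads may be shared. AL035425.1, on the other strand, had a difference of 0.74. COL4A5, a collagen gene and the other kept neighbour within 250 kb, had 25.1 FPKM in Ctrl and 19.1 in V1PAKI (difference -0.38). At the second place UTP14A (difference 1.07) lies with ZDHHC9, a palmitoyltransferase gene, at 7.84 and 16.1 FPKM (0.95), the corepressor gene BCORL1 at 7.57 and 13.9 (0.80) and AIFM1 at 12 and 20.7 (0.74). ELF4 and RAB33A, the other kept genes within 250 kb, had differences of 0.47 and 0.52. PHF6 (21.4 and 38.3 FPKM), RAB9A (3.79 and 7.69), MAGEH1 (7.21 and 13.4) and TSPAN6 (19.3 and 32.8) are X-linked genes further away with differences from 0.74 to 0.86. Over 245 windows of 10 Mb with at least 20 kept genes the medians ran from -0.26 to 0.18, the highest was on the X between 10 and 20 Mb, and 5 of the 10 highest were on the X, which has 9 such windows. That X window also stood at 0.71 at d10 and 0.20 at d16D.

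Clone-named and read-through symbols were among the largest differences outside the non-neural class. Of the 10 largest differences above 0 at 5 FPKM or more 6 have clone-based names and 2 are read-through genes, which join 2 neighbours under 1 symbol. URGCP-MRPS24 was listed at 0 in Ctrl and stood at 14 FPKM in V1PAKI, while its parts URGCP and MRPS24 had differences of -0.36 and -0.79. RPL36A-HNRNPH2 stood at 13 and 51.6 FPKM with RPL36A at 60.7 and 60.0. TMEM189-UBE2V1 went the other way, at 11.9 FPKM in Ctrl and listed at 0 in V1PAKI, with UBE2V1 at 18.9 and 24.1. Of 67 kept read-through symbols with both parts measured, 15 were past 1, and for none of the 15 was the sum of the symbol and both parts past 1. AL358472.7, the farthest below 0, was at 38.3 FPKM in Ctrl and listed at 0 in V1PAKI at d16V and in both d16D libraries. AC010132.3 (13.9 and 0.748), AC007326.5 (5.50 and 0.750) and AL133346.1 (5.41 and 0.806) were among the 10 farthest below 0 too, as was AC005154.5 (7.89 and listed at 0). The clone-named genes above 0 were AC117378.1, AC245033.1, AC138811.2, AC007780.1, BX255923.2 and AL035425.2. SLC39A1, a zinc transporter gene, stood at 7.2 FPKM in Ctrl and 28.0 in V1PAKI, but the other 5 libraries from d10 on lay between 26.8 and 35.1, so the Ctrl ventral library was the one apart. AL358472.7 (chromosome 1, 153959151 to 153975887) overlaps SLC39A1 (153959099 to 153968184) on the minus strand, so their fragments may be split between them.

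The ventral response itself, V against D within a line, was also compared. In Ctrl 267 genes were at least 1 higher at d16V than at d16D and in V1PAKI 389, with 83 in both, 31.1% of the first list and 21.3% of the second. Over all genes kept within each line these calls were 1.79% in Ctrl and 2.6% in V1PAKI. Genes lower in the ventral library numbered 214 in Ctrl (1.44%) and 1203 in V1PAKI (8.03%), with 63 in both, 29.4% of the first list and 5.24% of the second. The V1PAKI number moves with the non-neural level of its d16D library, whose part was not tested. Hypothalamus and ventral diencephalon genes had a median d16V minus d16D difference of 1.40 in Ctrl and 1.51 in V1PAKI. The same median was 0.13 and 0.90 for ventral telencephalon genes, and -0.56 and -6.28 for the endoderm genes. Summed FPKM of the ventral telencephalon genes were 136 in Ctrl and 43.7 in V1PAKI at d16D, and 237 and 167 at d16V. V1PAKI thus had the lower ventral telencephalon sum in both arms. For SHH the d16V minus d16D difference was 3.40 in Ctrl and 1.83 in V1PAKI.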

How the data were processed

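Bulk RNA of 10 H9 libraries was made into libraries with a TruSeq kit, per the labels' protocols, and 1 library per line of the day 16 ventral arm was compared. The authors deposited FPKM per gene symbol. The submitters' processing notes name cutadapt 1.18, HISAT2 2.1.0, Cufflinks and GRCh38. The sources used here do not give annotation, strand setting or filters. FPKM are scaled to the library and to transcript length, so a higher level of 1 group lowers the rest, and reads of overlapping genes can be split by the estimate.

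Genes of at least 1 FPKM in either ventral library were kept, and differences were computed on log2(FPKM + 1) with pandas 2.3.3. Genes were placed by GENCODE 29 (39904 symbols with 1 position). No test was possible with 1 library per group. The comparison members and 42 gene lists (832 genes, 827 in the table) were chosen with earlier results of these data known. Named genes were the 3 of the title, the 10 largest differences in each direction outside the non-neural class and 8 per direction shared by both arms (all at 5 FPKM or more), every measured member of 4 lists and up to 4 extremes of each other list. Genes named beyond these were chosen after their values were seen. The counting functions were tested on simulated data. Alternatives were 2 pseudocounts, 2 filters, 3 scalings, a correction for GC and length, other cutoffs and other class rules. Some genes are not reported here. Column names matched the 10 sample titles.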

Additional observations from a re-analysis of the deposited data

Results flagged for a closer look

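The non-neural lists differed in opposite directions in the 2 day 16 arms, and the difference between the arms was not tested, since each arm has 1 library per line. The median V1PAKI minus Ctrl was -1.36 at d16V and 2.30 at d16D for mesoderm and heart (12 genes), and -3.24 and 2.45 for endoderm, yolk sac and liver (20 genes). It was -1.88 and 1.70 for mesenchyme and fibroblast matrix (24 genes), -1.32 and 1.83 for epithelium and surface ectoderm (13 genes), and -1.25 and 1.15 for endothelium and blood (6 genes).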

How the results depend on the processing

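No paired analysis was possible because each line had 1 library in the ventral arm and the labels number no replicates. Genes higher and lower at d16V (60 and 363) came to 208 and 835 with a pseudocount of 0.1, 12 and 61 with a pseudocount of 5, 27 and 141 with a filter of 5 FPKM, and 212 and 668 in TPM, where a pseudocount of 1 is a smaller share of the value. At a difference of 2 they were 6 and 60. Outside the non-neural class 59 and 192 became 192 and 505, 12 and 18, 26 and 66, and 202 and 402 under the first 4 of these settings, in that order. Genes lower and higher in both arms (28 and 11) became 115 and 41, 3 and 1, 10 and 5, and 72 and 36. By list alone, without the swing rule, 300 genes outside the class were lower. Protein-coding genes alone gave 34 higher genes. Without read-through and clone-based symbols, a setting added after seeing the data, 19 genes were higher, 18 outside the class and 4 in both arms. SOX1-OT stood at -1.46 with a pseudocount of 0.1 and -0.45 with one of 5, and the hypothalamus median at -0.026 with the 5 FPKM filter. Other values moved by less than the SD of all differences (0.39) in 2321 of 2665 gene and list values recomputed, and moved further in 344. None of those past 1 changed sign. Of 135 named genes past 1, 45 stayed past it in every setting, NKX6-2, ID1, NOG, H1F0, TDRD7 and IRS4 among them. SOX1 was at -0.94 and SHH at -0.90 with a pseudocount of 5. The X-linked and autosomal shares at least 0.5 higher were 4.29% and 0.413% with a pseudocount of 5 and 13.5% and 2.58% in TPM. The scalings moved the median of all genes from -0.07 to 0.01 at most. With 1 library per line no difference can be set against the spread between cultures, and the unknown depth limits what low values can show.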
